A study of Mus musculus with 14 samples.

Results

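The genes described here encode 7 inflammatory chemokines: Ccl3, Ccl4, Ccl5, Ccl6 and Ccl9 of the CC family, and Cxcl2 and Cxcl10 of the CXC family. They were named with earlier results of these data known, and were taken as the probe sets annotated to these symbols in the deposited table. Among several probe sets of a gene the mean over the arrays was to decide, so members could be chosen by that value, but each of the 7 genes had 1 probe set. They are 7 of 19155 genes that could be tested. The samples were 14 arrays (Affymetrix Mouse Gene ST 1.0) of multipotent progenitors sorted from the bone marrow of wild-type C57BL/6 mice. There were 3 arrays of old MPP4, 5 of young MPP4, 3 of old MPP3 and 3 of young MPP3, where old mice were 24 months of age and young mice 8 to 10 weeks. MPP4 (Lin-, cKit+, Sca-1+, Flk2+) are lymphoid-biased and MPP3 (Lin-, cKit+, Sca-1+, Flk2-, CD48+, CD150-) are myeloid-biased progenitors. No mouse carried a transgene or received a treatment in this experiment, and each array held amplified RNA of 20000 sorted cells. The methods call the arrays of a group biological replicates, and the labels do not say whether mice were pooled.

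Chemokines are small secreted proteins that steer leukocytes through G protein-coupled receptors. The first cysteines of a CC chemokine are adjacent, and those of a CXC chemokine are parted by another residue. CC chemokines mostly attract monocytes, lymphocytes and eosinophils. Some CXC chemokines attract neutrophils through Cxcr2, and some attract activated T cells through Cxcr3. In bone marrow several of them are induced by inflammatory cytokines through NF-kB, and Cxcl10 by interferons. Here only RNA was measured, and with bulk samples a change in the number of cells that express a gene cannot be told apart from a change in RNA per cell.

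Values are given as the deposited normalized value, a rank on the array: a value of 0 is the bottom of the array, and a higher value means that a smaller share of ranked probe sets lies at or above the gene. Groups are compared as differences in normalized value, which are not folds, and levels of different genes are not compared. A gene is called when limma's p-value, adjusted by Benjamini-Hochberg over all 19155 genes, is under 0.05. All arrays were normalized onto the same reference distribution, so their similar medians, between 0.662 and 0.675, follow from that step. Flt3, the gene of Flk2 and so part of the sort, was at 3.40 ± 0.118 (SD, n = 3) in old MPP4 and 1.79 ± 0.343 (SD, n = 3) in old MPP3. It was at 3.12 ± 0.341 (SD, n = 5) in young MPP4 and 2.13 ± 0.0967 (SD, n = 3) in young MPP3, in the order that the gate sets. The dimmest probe sets divide the arrays into a set 1, with the 6 old arrays and 3 young ones (replicate 1 of MPP3 and replicates 1 and 2 of MPP4), and a set 2, with the remaining 5 young arrays. The labels do not describe this division. Xist RNA of the inactive X chromosome was above 1 on 4 young arrays (MPP3 replicate 1 and MPP4 replicates 1, 4 and 5) and on no old array. Of these, young MPP4 replicates 4 and 5 also had signal of the Y-linked gene Eif2s3y (0.855 and 1.89), against 0.0261 on young MPP4 replicate 1 and 0.0221 on young MPP3 replicate 1. The young arrays also belong to an earlier series, so series and age cannot be told apart.

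Over the 14 arrays Ccl3 varied most, with an SD of 0.842, which is larger than that of 99.9% of genes. Cxcl2 (SD 0.364), Ccl5 (SD 0.314) and Ccl9 (SD 0.267) followed, each more variable than over 96% of genes. Ccl4 (SD 0.181), Cxcl10 (SD 0.141) and Ccl6 (SD 0.0699) varied least. These SDs include the differences between the groups.

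**Figure D1:**
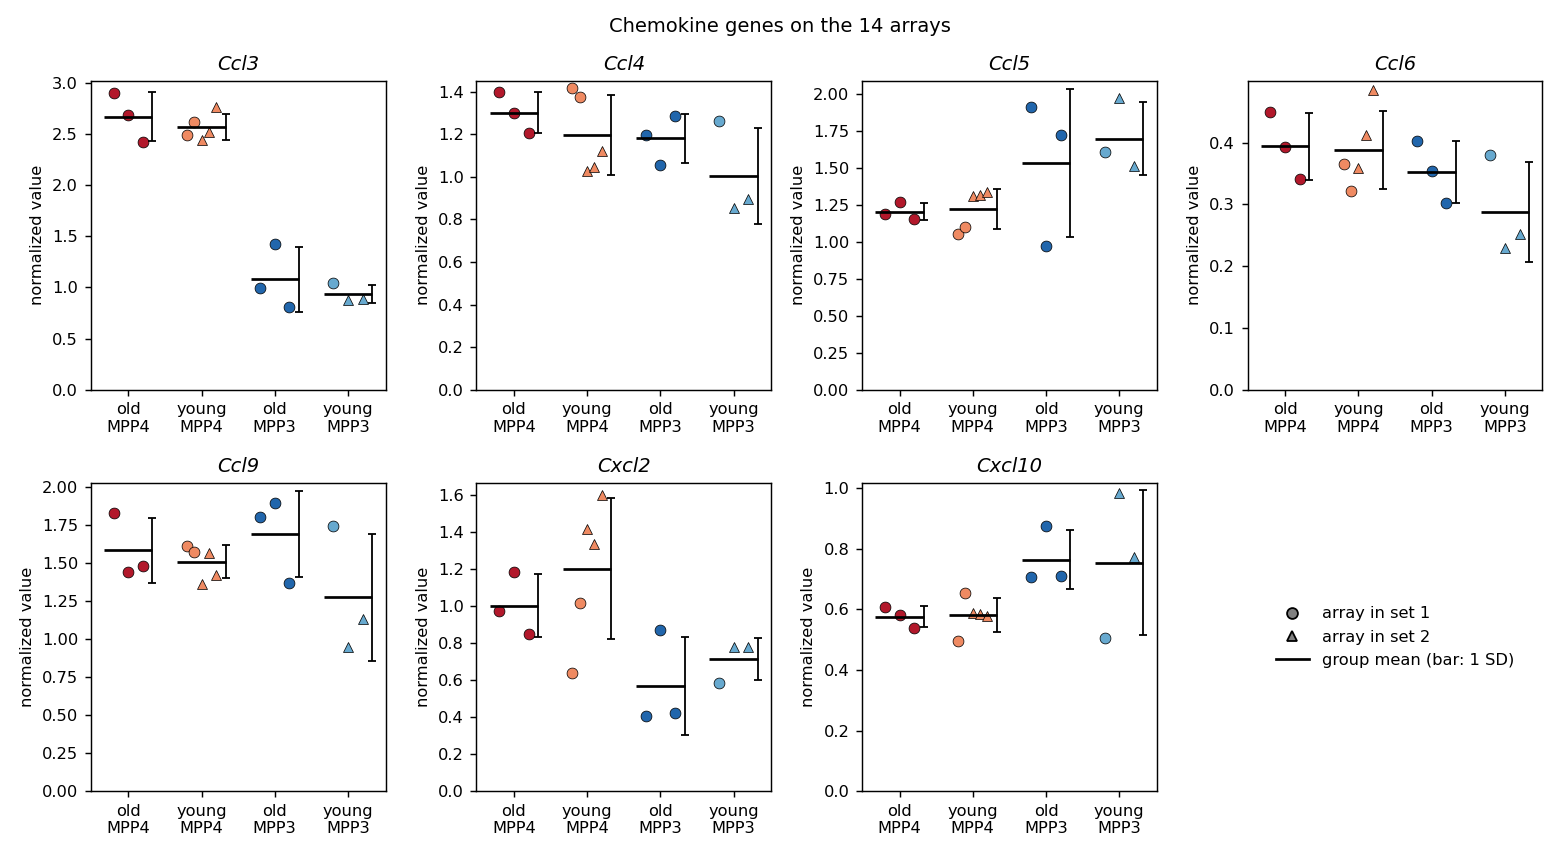
Normalized value (rank scale, no unit) of each chemokine gene on every array, by group; black lines are group means with 1 SD, circles are arrays of set 1 and triangles arrays of set 2. The 8 MPP4 arrays lie between 2.42 and 2.90 for Ccl3 and the 6 MPP3 arrays between 0.807 and 1.43, while groups of other genes lie closer together.

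Ccl3, or MIP-1 alpha, attracts monocytes and lymphocytes and is known as an inhibitor of the cycling of stem and progenitor cells. It was the chemokine that separated the populations. In old MPP4 its normalized values were 2.90, 2.69 and 2.42, against 0.999, 1.43 and 0.807 in old MPP3. In young MPP4 they were 2.49, 2.62, 2.44, 2.52 and 2.77, against 1.04, 0.881 and 0.890 in young MPP3. Every MPP4 array lay above every MPP3 array, with the lowest MPP4 array at 2.42 and the highest MPP3 array at 1.43. Within an age, the populations did not overlap for 16.6% of all genes in old mice and 7.47% in young mice. The share over both ages together was not computed. At the group means, 6.92% of ranked probe sets lay at or above Ccl3 in old MPP4 and 7.67% in young MPP4, against 34.0% in old MPP3 and 39.2% in young MPP3. From high to low the order was old MPP4, young MPP4, old MPP3 and young MPP3, in which the 2 MPP4 groups overlapped each other, as did the 2 MPP3 groups.

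In old mice Ccl3 was higher in MPP4 than in MPP3 by 1.59 ± 0.202 (SE, 95% confidence interval 1.08 to 2.10), which limma did not call (adjusted p = 0.203), and no gene was called there (0%, with 1882 genes at an unadjusted p under 0.05). In young mice the difference was 1.63 ± 0.0789 (SE), with an adjusted p of 7.5e-04 by limma, the second smallest p of all genes. In the comparison in young mice 25 genes were called (0.131%), 13 of them higher and 12 lower in MPP4, and Ccl3 was the only one of the 7 chemokines among them. With 1 fit of all 4 groups, whose spread is estimated over 14 arrays, the difference in old mice was called (adjusted p = 0.00791). Averaged over both ages, the difference was 1.61 ± 0.103 (SE), and Ccl3 had the smallest p of all 19155 genes (adjusted p = 7.5e-05, limma). In the averaged comparison 188 genes were called (0.981%), 121 higher and 67 lower in MPP4, and Ccl3 was again the only one of the 7. Within array set 1 the averaged difference was 1.55 and not called (adjusted p = 0.0981), and in young mice it was 1.52 within set 1 (adjusted p = 0.620) and 1.69 within set 2 (adjusted p = 0.0113). Without the 4 arrays with Xist signal the difference in young mice was 1.65 (adjusted p = 0.208) and the averaged difference 1.62 (adjusted p = 0.0204), by limma.

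Monocytes and macrophages are well-known sources of Ccl3. None of 13 measured genes of their list was called in the averaged comparison, where 0.981% of all genes were, and 4 of 13 had a higher mean in MPP4. The mean value of the list per array ran from 0.538 to 0.588 in old MPP4 and from 0.547 to 0.585 in young MPP4, against 0.623 to 0.716 in old MPP3 and 0.559 to 0.597 in young MPP3. The ranges of MPP4 and MPP3 overlapped in young mice, and MPP4 lay below MPP3 in old mice. The part of such cells in the Ccl3 values was not tested.

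The genes whose pattern over the 14 arrays was most like that of Ccl3, by the root mean square difference after each gene's mean was removed, were Wfdc17 (0.320), Flt3 (0.409) and Dntt (0.444). Wfdc17 encodes a secreted protein with a whey acidic protein domain, and Dntt encodes the terminal transferase of early lymphoid cells. Flk2, the product of Flt3, is part of the sort. For every gene this measure includes the difference between MPP4 and MPP3. In the RefSeq order of genes on chromosome 11, Wfdc17 is the next measured gene after Ccl4, and Ccl4 is next to Ccl3. The neighbours were looked at after their values had been seen.

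The 5 CC genes lie together in that order: Ccl5, Ccl9, Ccl6, Ccl3 and Ccl4, then Wfdc17, Wfdc18 and Wfdc21. Wfdc17 was at 2.29, 1.44 and 1.94 in old MPP4 and at 0.361, 0.679 and 0.229 in old MPP3. In young mice it was at 2.77, 2.21, 1.76, 1.60 and 2.13 in MPP4 and at 0.600, 0.419 and 0.454 in MPP3. As with Ccl3, every MPP4 array lay above every MPP3 array, and the share of all genes with such a separation over both ages was not computed. Within an age it was 16.6% in old mice and 7.47% in young mice, in either direction. Averaged over ages, Wfdc17 was higher in MPP4 by 1.54 ± 0.187 (SE, adjusted p = 0.00406, limma) and Wfdc18 by 0.42 ± 0.0596 (SE, adjusted p = 0.00839), while Wfdc21 differed by -0.50 ± 0.115 (SE, adjusted p = 0.0735) and was called only without old MPP3 replicate 1 among the single arrays left out. Neither Wfdc17 nor Wfdc18 was called within array set 1, where the differences were 1.68 (adjusted p = 0.110) and 0.37 (adjusted p = 0.174). Wfdc18 lost its call without the arrays with Xist signal as well (adjusted p = 0.0726). Ccl4, which lies between Ccl3 and Wfdc17, was not called, and of the 14 genes in this stretch the 6 that are neither chemokines nor Wfdc genes differed by -0.08 to 0.08, none of them called. A higher value in MPP4 was therefore called for 3 genes of this stretch, which are not all adjacent. Of these, Wfdc18 was at 0.549 ± 0.139 in old MPP4 and 0.720 ± 0.149 in young MPP4 (SD), against array medians between 0.662 and 0.675. In MPP3 it was at 0.212 ± 0.0374 in old and 0.208 ± 0.0137 in young mice (SD).

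**Figure D2:**
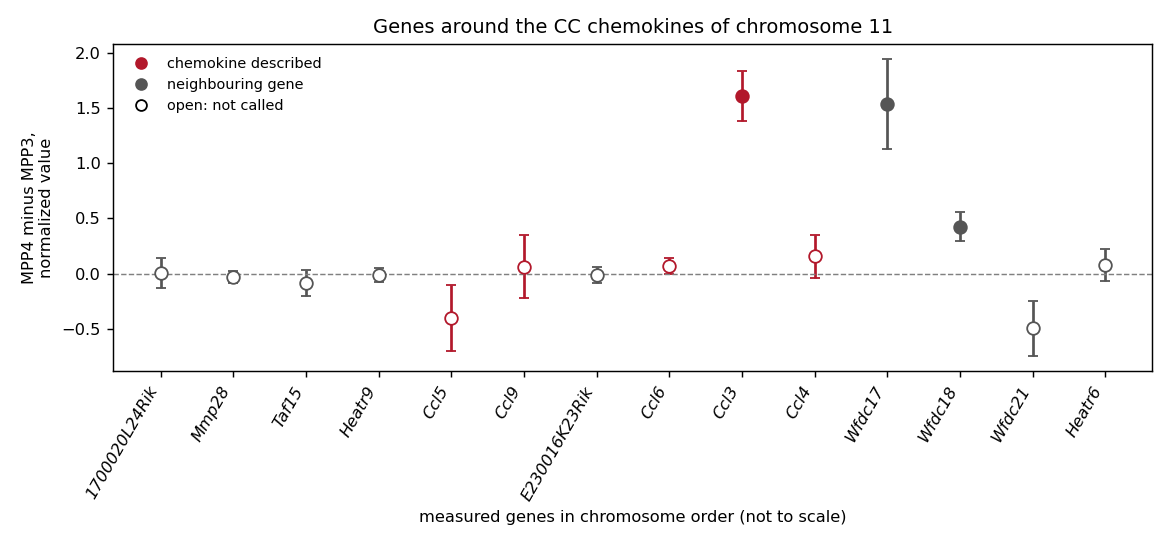
Difference in normalized value between MPP4 and MPP3, averaged over old and young mice, for the 14 measured genes around the CC chemokines of chromosome 11 in chromosome order (spacing not to scale); bars are 95% confidence intervals, red marks the chemokines described and filled points have an adjusted p under 0.05. Ccl3 (1.61), Wfdc17 (1.54) and Wfdc18 (0.42) are filled, and Ccl4 between the first pair is at 0.16.

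The RefSeq promoter table used here (GRCm38.p6) matched 5 of the 7 genes. The 250 bases before the start of Ccl3 (chr11:83649379-83649628, minus strand) and of Wfdc17 (chr11:83703806-83704055, plus strand) are shown because these genes had the most similar patterns over the arrays. They are written in the direction of transcription and hold no match, on either strand, to the kappa B motif (GGGA, any 2 bases, TTCC), the interferon-stimulated response element (GAAA, any 2 bases, GAAA) or the TATA motif TATAAA. No match says only that these letters are not in this window.
Ccl3: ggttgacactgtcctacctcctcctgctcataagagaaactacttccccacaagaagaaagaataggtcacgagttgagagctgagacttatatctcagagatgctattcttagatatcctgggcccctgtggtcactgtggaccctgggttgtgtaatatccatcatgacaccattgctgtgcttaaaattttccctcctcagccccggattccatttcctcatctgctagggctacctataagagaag
Wfdc17: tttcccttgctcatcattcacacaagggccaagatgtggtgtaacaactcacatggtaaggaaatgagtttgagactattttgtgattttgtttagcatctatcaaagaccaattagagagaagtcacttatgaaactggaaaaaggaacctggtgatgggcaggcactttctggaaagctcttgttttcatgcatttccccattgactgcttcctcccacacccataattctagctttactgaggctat

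Ccl4, or MIP-1 beta, attracts monocytes and T cells and lies next to Ccl3, with which it overlaps in the RefSeq gene table. Its values were 1.40, 1.30 and 1.21 in old MPP4 and 1.20, 1.06 and 1.29 in old MPP3. In young mice they were 1.42, 1.38, 1.03, 1.04 and 1.12 in MPP4, against 1.26, 0.853 and 0.894 in MPP3. The groups overlapped in each comparison. MPP4 minus MPP3 was 0.12 ± 0.0777 (SE) in old mice (adjusted p = 0.663) and 0.19 ± 0.134 (SE) in young mice (adjusted p = 0.675), by limma. Averaged over ages it was 0.16, with a 95% confidence interval of -0.04 to 0.35 (adjusted p = 0.487). Young MPP4 replicates 1 and 2 and young MPP3 replicate 1, the young arrays of set 1, were the highest of their groups for Ccl4.

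Ccl5, or RANTES, is made by activated T and NK cells and platelets and attracts T cells and monocytes through several CC receptors. In old mice its values were 1.19, 1.27 and 1.15 in MPP4, against 1.91, 0.968 and 1.72 in MPP3. In young mice they were 1.05, 1.10, 1.31, 1.32 and 1.33 in MPP4, against 1.60, 1.97 and 1.51 in MPP3. All 8 MPP4 arrays lay below 5 of the 6 MPP3 arrays, and old MPP3 replicate 2 lay below all of them. From low to high the group means were 1.20 ± 0.0588 (n = 3) in old MPP4, 1.22 ± 0.134 (n = 5) in young MPP4, 1.53 ± 0.499 (n = 3) in old MPP3 and 1.70 ± 0.244 (n = 3) in young MPP3 (SD), and each group overlapped the next in that order.

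MPP4 minus MPP3 was -0.33 ± 0.253 (SE, adjusted p = 0.714, limma) for Ccl5 in old mice and -0.47 ± 0.119 (SE, adjusted p = 0.228) in young mice. Averaged over ages it was -0.40 ± 0.136 (SE, adjusted p = 0.221), and without old MPP3 replicate 2 it was -0.54 and called (adjusted p = 0.0157). Groups did not overlap in young mice, which holds for Ccl3 too and for 7.47% of all genes. A SAM-type statistic called Ccl5 in young mice (false discovery rate 0.0340, estimated over all splits of the arrays). The difference was -0.53 within array set 1 and -0.42 within set 2 in young mice. Of the 17 measured genes of the T and NK cell list, 10 have a mean under 0.426, the limit of the dimmest genes that was used as a filter, and none was called in the averaged comparison. The mean value of that list per array was 0.454 to 0.481 in old MPP4 and 0.426 to 0.489 in young MPP4, against 0.554 to 0.582 in old MPP3 and 0.491 to 0.595 in young MPP3. Nkg7, a granule protein of NK and cytotoxic T cells, differed by -0.63 ± 0.138 (SE, adjusted p = 0.0603), and Gzma, a granzyme of the same cells, by -0.12 ± 0.0293 (SE, adjusted p = 0.0799). Nkg7 was called without any of 3 single arrays (replicate 1 of young MPP3, replicate 3 of old MPP3, replicate 2 of young MPP4) and Gzma without the first of these. Cd3d, a subunit of the T cell receptor complex that was picked as a defining marker after its values were seen, was near the bottom of the array in each group, with means of 0.137 in old MPP4, 0.155 in young MPP4, 0.129 in old MPP3 and 0.178 in young MPP3. Cd3d does not stand for the T and NK cell list. Of the 17 genes, 3 had a higher mean in MPP4 in the averaged comparison, and the median difference was -0.06. The part of such cells in the Ccl5 values was not tested. The genes with the pattern nearest to Ccl5 were Tjp1 (0.145), a tight junction protein, Gimap4 (0.156), a GTPase of lymphocytes, and Klrb1b (0.173), a lectin-like receptor of NK cells.

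Ccl6 and Ccl9 are CC chemokines of rodents that signal through Ccr1, and Ccl9 is made by myeloid cells and osteoclasts. Ccl6 was one of the dim genes that the filter leaves out, with group means of 0.394 in old MPP4, 0.389 in young MPP4, 0.353 in old MPP3 and 0.287 in young MPP3. Its values were 0.449, 0.392 and 0.341 in old MPP4 and 0.402, 0.354 and 0.301 in old MPP3. In young mice they were 0.365, 0.321, 0.359, 0.412 and 0.486 in MPP4, against 0.380, 0.230 and 0.253 in MPP3. The groups overlapped throughout, and the averaged difference was 0.07 ± 0.0338 (SE, adjusted p = 0.400).

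Ccl9 had the largest difference with age among the 7 genes. Its values were 1.80, 1.90 and 1.37 in old MPP3, against 1.75, 0.948 and 1.13 in young MPP3. Young MPP3 replicate 1 lay within the old range and the other young arrays below it. Old minus young was 0.41 ± 0.254 (SE, 95% confidence interval -0.23 to 1.06, adjusted p = 0.705, limma). Within array set 1, which holds only that 1 young MPP3 array, it was -0.06. In MPP4 the values were 1.83, 1.44 and 1.48 in old mice and 1.61, 1.57, 1.36, 1.57 and 1.42 in young mice, a difference of 0.08 ± 0.101 (SE, adjusted p = 0.843). Between populations the averaged difference was 0.06 ± 0.131 (SE, adjusted p = 0.896), with -0.11 in old mice and 0.23 in young mice.

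Cxcl2, or MIP-2, attracts neutrophils through Cxcr2. Its values were 0.974, 1.19 and 0.849 in old MPP4 and 0.405, 0.872 and 0.425 in old MPP3. In young mice they were 0.639, 1.02, 1.42, 1.34 and 1.60 in MPP4, against 0.584, 0.778 and 0.781 in MPP3. Most MPP4 arrays lay above the MPP3 arrays, but old MPP4 replicate 3 and young MPP4 replicate 1 lay within their range. The means were 1.00 ± 0.170 (n = 3) in old MPP4, 1.20 ± 0.380 (n = 5) in young MPP4, 0.567 ± 0.264 (n = 3) in old MPP3 and 0.715 ± 0.113 (n = 3) in young MPP3 (SD). In the order of these means each group overlapped the next, except old MPP4 and young MPP3.

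MPP4 minus MPP3 for Cxcl2 was 0.44 ± 0.159 (SE, adjusted p = 0.483, limma) in old mice and 0.49 ± 0.210 (SE, adjusted p = 0.456) in young mice. Averaged over ages it was 0.46 ± 0.146 (SE), and only 0.632% of genes had a larger difference in size, yet it was not called (adjusted p = 0.186). Without young MPP4 replicate 1 it was 0.53 and called (adjusted p = 0.0438). In young mice the difference was 0.24 within array set 1 (adjusted p = 0.865) and 0.67 within set 2 (adjusted p = 0.0278), where 1492 genes were called, and the 3 young MPP4 arrays of set 2 were the highest of all arrays. Bivm (0.148), Rps15a (0.158), a ribosomal protein, and Zc4h2 (0.161) had the nearest patterns. Of 11 measured neutrophil genes, 2 were called lower and none higher in MPP4 in the averaged comparison, and the list's mean per array was 0.311 to 0.443 in old MPP4 and 0.292 to 0.424 in young MPP4, against 0.724 to 1.09 in old MPP3 and 0.485 to 0.674 in young MPP3. The part of such cells in the Cxcl2 values was not tested.

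Cxcl10, or IP-10, is induced by interferons and attracts activated T cells through Cxcr3. Its values were 0.608, 0.581 and 0.539 in old MPP4, against 0.708, 0.876 and 0.711 in old MPP3. In young mice they were 0.497, 0.654, 0.588, 0.586 and 0.578 in MPP4, against 0.506, 0.983 and 0.773 in MPP3. The groups did not overlap in old mice, as was the case for 16.6% of all genes and, of the 7, for Ccl3 as well. In young mice MPP3 replicate 1 lay among the MPP4 arrays. MPP4 minus MPP3 was -0.19 ± 0.0542 (SE, adjusted p = 0.389, limma) in old mice and -0.17 ± 0.0972 (SE, adjusted p = 0.588) in young mice. Averaged over ages it was -0.18 ± 0.0632 (SE, adjusted p = 0.239), and without young MPP3 replicate 1 it was -0.24 and called (adjusted p = 0.0306). Within array set 1 it was -0.06, and in young mice it was 0.07 within set 1 and -0.29 within set 2. Its order, with both MPP3 groups above both MPP4 groups in mean, is the opposite of that of Cxcl2.

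The promoters of Cxcl2 (chr5:90903649-90903898, plus strand) and Cxcl10 (chr5:92348890-92349139, minus strand) are shown because, of the 5 promoters, they alone held a kappa B match. Capitals mark matches to the kappa B motif in both, which in Cxcl2 lie on both strands and overlap from 97 to 87 bases before the start, and in Cxcl10 lie from 159 to 150 bases before it. In Cxcl10 the first run of capitals, from 213 to 204 bases before the start, is a match to the response element motif. In windows of the same length and on both strands, 1.21% of 32851 promoters hold the kappa B motif and 2.98% the response element motif. The TATA motif, in 12.4% of promoters, was in that of Ccl9. A match describes the sequence and is not evidence of a bound site.
Cxcl2: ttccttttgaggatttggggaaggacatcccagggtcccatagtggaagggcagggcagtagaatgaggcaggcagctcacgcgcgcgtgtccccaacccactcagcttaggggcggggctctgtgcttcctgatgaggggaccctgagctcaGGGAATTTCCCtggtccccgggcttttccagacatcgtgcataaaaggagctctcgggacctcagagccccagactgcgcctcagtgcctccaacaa
Cxcl10: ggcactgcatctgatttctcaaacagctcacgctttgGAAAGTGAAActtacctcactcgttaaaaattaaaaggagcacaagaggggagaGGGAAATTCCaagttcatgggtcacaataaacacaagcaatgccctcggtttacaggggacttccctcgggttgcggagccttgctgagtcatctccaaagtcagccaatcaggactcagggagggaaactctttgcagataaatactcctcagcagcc

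The age comparisons asked how these genes differ between old and young progenitors of the same type. None of the 7 was called in MPP4 or in MPP3, and no gene was (0% in both, limma), with the smallest adjusted p over all genes at 0.0585 in MPP4 and 0.471 in MPP3. At an unadjusted p under 0.05 there were 1871 genes in MPP4 and 1568 in MPP3, none of them among the 7, and a SAM-type statistic called 21 genes in MPP4 and none in MPP3, again without the 7. Groups of old and young arrays overlapped for all 7 genes in both populations, against 7.29% of genes without overlap in MPP4 and 14.2% in MPP3. In MPP4 4 of 7 genes had a higher mean in old mice, with a median difference of 0.01, and in MPP3 5 of 7 did, with a median of 0.07, against medians close to 0 over all genes. The differences ran from -0.20 (Cxcl2) to 0.10 (Ccl4) in MPP4 and from -0.16 (Ccl5) to 0.41 (Ccl9) in MPP3. For Ccl3 the age difference was 0.10 ± 0.116 (SE, 95% confidence interval -0.17 to 0.37, adjusted p = 0.808) in MPP4 and 0.14 ± 0.167 (SE, interval -0.28 to 0.57, adjusted p = 0.855) in MPP3. Both intervals lie far below the difference between the populations, and neither shows that the level is the same at both ages.

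**Figure D3:**
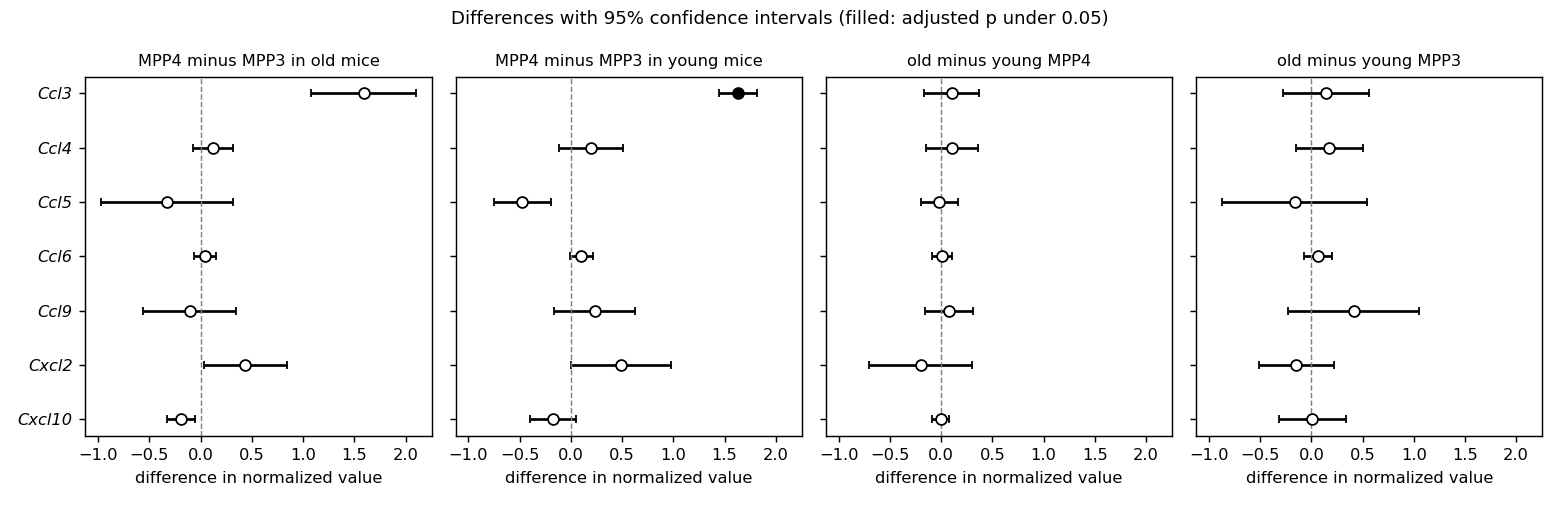
Differences in normalized value for the 7 chemokine genes, with MPP4 minus MPP3 in old and in young mice in the left pair of panels and old minus young in MPP4 and in MPP3 in the right pair; bars are 95% confidence intervals and the filled point has an adjusted p under 0.05. Ccl3 in MPP4 minus MPP3 stands at 1.59 in old and 1.63 in young mice, while every age interval includes 0.

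Averaged over both populations, 8 genes differed between old and young arrays (0.0418%), none of them one of the 7, whose adjusted p ran from 0.428 to 0.990. The difference between the age differences of MPP4 and MPP3 was called for no gene (0%, limma), with 1200 genes at an unadjusted p under 0.05, none of them among the 7. Their adjusted p ran from 0.896 to 0.997, so whether age acts unequally on the 2 populations was not resolved for any of them.

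The other chemokine genes gave no call between the populations. Of 16 other CC genes 14 were measured and none was called in the averaged comparison, with 4 of 14 higher in MPP4 in mean and a median difference of -0.05 against a median close to 0 over all genes. Ccl20 (-0.06, adjusted p = 0.239) and Ccl17 (-0.06, adjusted p = 0.293), ligands of Ccr6 and Ccr4, had the largest moderated statistics. All 15 other CXC, XC and CX3C genes were measured, and none was called. Xcl1, or lymphotactin, a ligand of Xcr1 made by T and NK cells, differed most, at 0.612 ± 0.0365 in old MPP4 and 1.02 ± 0.465 in old MPP3, and 0.657 ± 0.0665 in young MPP4 and 1.07 ± 0.151 in young MPP3 (SD). Its averaged difference was -0.41 ± 0.115 (SE, adjusted p = 0.137), and it was called without old MPP3 replicate 3 (adjusted p = 0.0365). Cxcl9, an interferon-induced ligand of Cxcr3 like Cxcl10, differed by -0.15 ± 0.0833 (SE, adjusted p = 0.491).

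None of 22 measured receptor genes was called in any comparison. Ccr1, a receptor of Ccl3, Ccl5, Ccl6 and Ccl9, was near the bottom of the arrays, at 0.0547 ± 0.0114 in old MPP4 and 0.0588 ± 0.0216 in young MPP4, against 0.0602 ± 0.0163 in old MPP3 and 0.0617 ± 0.0141 in young MPP3 (SD). Cxcr2, the receptor of Cxcl2, was highest in old MPP3, at 0.886 ± 0.289, against 0.342 ± 0.126 in young MPP3, 0.401 ± 0.129 in old MPP4 and 0.328 ± 0.134 in young MPP4 (SD), and its age difference in MPP3 was not called (adjusted p = 0.531, limma). Cxcr3, the receptor of Cxcl10, was at 0.686 ± 0.0926 in old MPP4 and 0.514 ± 0.105 in young MPP4, against 0.689 ± 0.165 in old MPP3 and 0.660 ± 0.310 in young MPP3 (SD), and these groups overlapped. These 3 receptors were picked for their role. By the size of the moderated statistic in the averaged comparison, Xcr1 (0.07, adjusted p = 0.219) and Ccr10 (-0.07, adjusted p = 0.253) came first.

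Few genes of the NF-kB and interferon lists were called in the averaged comparison, where 0.981% of all genes were. Their part in the chemokine values was not tested. Of 25 measured genes of the NF-kB and IL-1 pathway, 2 were called higher and none lower in MPP4 in the averaged comparison: Tnf, an inflammatory cytokine that is both a target and an inducer of NF-kB, by 0.39 ± 0.0638 (SE, adjusted p = 0.0179, limma), and Rel, an NF-kB subunit, by 0.27 ± 0.0536 (SE, adjusted p = 0.0448). Tnf was at 1.33 ± 0.140 in old MPP4 and 0.997 ± 0.0879 in old MPP3, and at 1.19 ± 0.150 in young MPP4 and 0.749 ± 0.0576 in young MPP3 (SD). The populations did not overlap for Tnf at either age, as was the case for 16.6% of all genes in old mice and 7.47% in young mice. Of 20 measured interferon genes, 2 were called higher and none lower: Ifnar2, a chain of the type I interferon receptor, by 0.22 ± 0.0332 (SE, adjusted p = 0.0119), and Irf9, a subunit of the complex that binds the response element, by 0.36 ± 0.0717 (SE, adjusted p = 0.0448). In the NF-kB list 13 of 25 genes had a higher mean in MPP4, with a median difference close to 0. In the interferon list 14 of 20 did, with a median of 0.09. None of the 4 called genes was called within array set 1 or without the arrays with Xist signal. Leaving out single arrays, Tnf lost its call without young MPP3 replicate 2 and without replicate 1 or 2 of old MPP4, Rel without any of 11 of the 14 arrays (all but young MPP3 replicate 1, old MPP3 replicate 1 and young MPP4 replicate 1) and Irf9 without any of 10 (all but the 3 of old MPP3 and young MPP4 replicate 1). Neither list had a called gene in an age comparison, but within MPP4 and within MPP3 no gene at all was called with age. Of the 20 interferon genes, 5 had a higher mean in old mice in each population. The median difference with age was -0.06 in MPP4 and -0.13 in MPP3. Of the 25 NF-kB genes, 10 were higher in old MPP4 and 15 in old MPP3, with medians close to 0.

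Among lists of other cell types, those of myeloid progenitors and of granulocytes held genes lower in MPP4. Of 13 myeloid progenitor genes, 6 were called lower and none higher in MPP4 in the averaged comparison (against 0.981% of all genes called in either direction), among them Ms4a3 (-1.93), Mpo (-1.64), Elane (-1.60) and Ctsg (-1.26), the last 3 being genes of primary granule proteins. Mpo lost its call without young MPP3 replicate 2 or any of the 3 old MPP4 arrays, and Ctsg without young MPP3 replicate 2 or old MPP4 replicate 2 or 3. Their median difference was -0.46. Of 10 genes of mast cells, basophils and eosinophils 3 were called lower. None of the measured B cell (7), platelet (7), erythroid (4) and stromal or endothelial (9) genes was called. The list mean per array of the platelet genes, which matter here since platelets store Ccl5, was 0.692 to 0.748 in old MPP4 and 0.667 to 0.786 in young MPP4, against 0.662 to 0.886 in old MPP3 and 0.832 to 0.861 in young MPP3. Their part in the Ccl5 values was not tested.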

How the data were processed

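Total RNA of 20000 sorted cells per sample was amplified with a linear kit and hybridized to Mouse Gene ST 1.0 arrays. The authors ran RMA, whose version was not stated, and then quantile normalization in R 2.15.1 onto a standard exponential reference, so each deposited value is a score of rank. It equals minus the natural log of the share of probe sets that rank as high or higher, and within 0.01 of a rank 92.3% of values were whole ranks among 25307 probe sets. Signal intensities and dim probes cannot be recovered from ranks, so a difference is not a fold, and the number of arrays limits the precision.

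Of 22115 probe sets, 19980 had an annotation, and those with several symbols (744) were left out. For genes with several probe sets (76) the one with the highest mean was used, which left 19155 genes. They were modelled in R 4.3.3 with lmFit and eBayes of limma 3.58.1, with two-sided tests and Benjamini-Hochberg adjustment over all genes at 0.05. Comparisons within a population or an age used the arrays of its groups, and averaged comparisons all 4 groups. The procedure was tested on simulated data. Neighbours and names came from a RefSeq gene table and promoters from RefSeq (GRCm38.p6), and the table's build is not named by the deposited files. Figures were drawn with Python 3.11.15.

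Genes of other lists were named if called, at most 4 per list by size, or else the 2 with the largest moderated statistic. Cd3d, 3 receptors and the neighbours were named outside this rule. Gene models without a name were left out of likeness. The 7 genes and all lists were chosen with earlier results of these data known. Other settings were a SAM-type statistic (the study's own method), a filter on the dimmest genes, a variance trend, 1 fit of all groups, normal scores, every probe set, a replicate block, subsets of arrays and leaving out each array. Comparisons within array set 2 and with the array set as a term were chosen after seeing the data.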

Additional observations from a re-analysis of the deposited data

How the results depend on the processing

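Limits come first from the size of the groups, with 3 to 5 arrays each. Of the 4 comparisons within an age or a population, the number of the 7 genes called changed only between MPP4 and MPP3. In old mice none was called in the reported fit, and 1 was by the SAM-type statistic and by 1 fit of all 4 groups. In young mice 1 was called, and 2 by the SAM-type statistic and within array set 2, but 0 within array set 1, without the arrays with Xist signal and with a replicate block. Averaged over ages 1 was called, but 0 within array set 1 and 2 with the array set as a term. Leaving out single arrays gave 1 to 2 there, with 2 when replicate 1 of young MPP3, replicate 2 of old MPP3 or replicate 1 of young MPP4 was left out. These subsets hold fewer arrays. The count of all genes called moved more. In young mice it was 25, against 208 by the SAM-type statistic, 1492 within array set 2, 271 with the array set as a term, 48 to 59 with a variance trend, normal scores, every probe set or the filter, and 0 with a replicate block, within set 1 or without the arrays with Xist signal. In old mice it was 0, against 142 by the SAM-type statistic and 27 by 1 fit of all groups. Averaged over ages it was 188, against 600 with the array set as a term, 285 with the filter, 41 without the arrays with Xist signal, 29 with a replicate block and 0 within set 1. For old minus young MPP4 it was 0, against 21 by the SAM-type statistic, and for old minus young MPP3 0, against 9 by 1 fit. For the averaged age comparison it was 8, against 0 to 4 in all settings but every probe set (11) and the single arrays left out (1 to 119). Leaving out single arrays gave 8 to 108 in young mice, 0 to 3 in old mice, 79 to 327 averaged over ages, 0 to 15 for old minus young MPP4 and 0 to 10 for the difference between the age differences.

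Ccl3 kept its direction between populations in all settings, with 1.52 to 1.69 in young mice, 1.46 to 1.77 in old mice and 1.54 to 1.70 averaged over ages, on the deposited scale. It stayed called without each single array in young mice (8 of 8) and averaged over ages (14 of 14). With a replicate block the differences were 1.58 in young mice (adjusted p = 0.388) and 1.59 averaged over ages (adjusted p = 0.00743), by limma. Same-numbered arrays of MPP4 and MPP3 within an age did not correlate throughout (from -0.15 to 0.41), so the numbers were not taken to pair samples. The highest correlation was that of replicate 1 in young mice, whose arrays both had Xist signal and little of Eif2s3y. Whether these arrays share a source was not tested.

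Other differences that were not called changed sign. Within array set 1, old minus young MPP3 was -0.083 for Ccl4, -0.027 for Ccl6 and -0.056 for Ccl9. There old minus young MPP4 was -0.10 for Ccl4, 0.13 for Ccl5, -0.0079 for Ccl9, 0.18 for Cxcl2 and 0.00021 for Cxcl10. MPP4 minus MPP3 within set 1 was -0.037 for Ccl6, -0.15 for Ccl9 and 0.069 for Cxcl10 in young mice and -0.13 for Ccl9 averaged over ages. With a replicate block Ccl5 in old minus young MPP4 was 0.048, and without the arrays with Xist signal Cxcl10 in old minus young MPP3 was -0.11. Leaving out single arrays, old minus young MPP4 ran from -0.015 to 0.23 for Ccl3, -0.062 to 0.0076 for Ccl5, -0.022 to 0.032 for Ccl6, -0.047 to 0.15 for Ccl9 and -0.026 to 0.014 for Cxcl10. Old minus young MPP3 ran from -0.033 to 0.28 for Ccl3, -0.35 to 0.12 for Ccl5 and -0.11 to 0.13 for Cxcl10. The averaged MPP4 minus MPP3 difference of Ccl9 ran from -0.019 to 0.18. The cause was not tested.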
